A study of Mus musculus with 378 samples.

Results

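The cells described here are tumour-infiltrating CD4 T cells with RNA of Foxp3, compared between mice labelled as Il27ra knockout (KO) and wild type (WT). The cells were selected on their measured values. A cell was taken as a member when its title gave CD4 and a single-cell library, when at least 1000 genes were above 0 FPKM, and when Foxp3 itself was above 0 FPKM. This gave 69 cells of the 374 single cells of the series, 39 of them KO-labelled and 30 WT-labelled. FPKM is the number of sequenced fragments scaled by transcript length and library size. Both groups came from C57BL/6 mice that carried B16F10 tumours, a transplanted melanoma, and no drug or other treatment is named for either. KO cells are labelled IL27raKO, with no word on which exons were deleted, in which cells or by which allele, and no age or sex is given. The series asks about the T cell gene signature that IL-27 gives in tumours.

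No animals are named in the labels, so each genotype is 1 sample and its cells are parts of that sample. No test between genotypes was possible, SDs are over cells, and intervals on shares of cells are exact Clopper-Pearson 95% intervals that cover counting error only. For a count of 0 the limit given is instead the share that 3 cells would make, and it bounds cells with a value above 0, not cells that express the gene. KO CD4 titles carry p2 and WT CD4 titles carry p3, and each group also has an animal word of its own. A difference of genotype and a difference of these title marks cannot be told apart here. The protocol text names CD8+ cells only, so CD4 identity is taken from the titles, with the lineage genes given below as a check.

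Regulatory T cells are CD4 T cells that restrain other immune cells, and the transcription factor Foxp3 is their defining gene. They depend on IL-2, which they bind through the receptor chain encoded by Il2ra, and in tumours many of them carry an activated, or effector, programme with receptors such as CTLA-4, TIGIT and CCR8. IL-27 is a cytokine made mainly by myeloid cells. It signals through a receptor of the chains encoded by Il27ra and Il6st, through JAK kinases and through factors of the STAT family. It is known to induce IL-10, interferon-response genes and several inhibitory receptors in T cells.

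Foxp3 was above 0 FPKM in 39 of 78 KO-labelled CD4 cells that passed the gene filter (50%, interval 38.5 to 61.5%), and in 30 of 79 WT-labelled ones (38%, 27.3 to 49.6%). The intervals overlap. Among members, Foxp3 ran from 0.8 FPKM through a median of 916 to 3413 FPKM in KO-labelled cells and from 8.26 through 1213 to 3580 FPKM in WT-labelled cells. Foxp3 chose the cells, so these values are a description. Just inside the threshold lay 2 KO-labelled cells at 0.8 and 1.04 FPKM and 1 WT-labelled cell at 8.26 FPKM, and the next values were 45.02 FPKM in KO and 10.96 FPKM in WT. On the other threshold, the highest gene counts not kept were 977 in KO and 557 in WT, and 1 library with Foxp3 was lost in each group. The other CD4 cells, 39 KO-labelled and 49 WT-labelled, had Foxp3 at 0 and are called Foxp3-negative below.

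Depth differed little between the groups by the number of genes detected. KO-labelled members had 1467 to 5220 genes above 0 FPKM with a median of 2809, and WT-labelled members had 1632 to 5411 with a median of 2822. In Foxp3-negative cells the medians were 2500 in KO and 2119 in WT, so the KO cells there held more genes. No KO-labelled member lacked Cd3d, Cd3e and Cd3g together, 0 of 39 cells (a count of 0 allows up to 7.69%), and 1 of 30 WT-labelled members did. These genes encode the T cell receptor's signalling chains. Cd4 was above 0 in 32 of 39 KO-labelled and 29 of 30 WT-labelled members. The CD8 coreceptor gene Cd8a was found in 4 KO-labelled and 2 WT-labelled cells, and either CD8 chain in 16 of 39 KO-labelled and 15 of 30 WT-labelled cells, mostly through Cd8b1. At least 3 markers of macrophages, of class II antigen presentation or of dendritic cells were above 0 in 3 KO-labelled cells and 1 WT-labelled cell. Among melanoma genes, Tyr was above 0 in 38 of 39 KO-labelled and all 30 WT-labelled cells, at a mean log2(FPKM + 1) of 3.0 in KO and 3.28 in WT, while none of the other 5 was above 0 in more than 4 cells of either group. Cells were processed in separate wells and doublets were not called. Whether a well held more than 1 cell was not tested.

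Il27ra, the gene named in the KO label, was not lower in the KO-labelled members. It was above 0 FPKM in 24 of 39 KO-labelled cells (61.5%, interval 44.6 to 76.6%) and in 12 of 30 WT-labelled cells (40%, 22.7 to 59.4%). On the log2(FPKM + 1) scale it had a median of 4.51 and a highest value of 8.79 in KO-labelled cells, against a median of 0 and a highest value of 7.72 in WT-labelled cells. Its mean was 3.73 ± 3.30 in KO (SD over 39 cells) against 2.39 ± 3.11 in WT (SD over 30 cells), and KO minus WT was 1.34. Cells without any value were present in both groups, and the ranges overlap from 0 up to the highest WT-labelled value. In the Foxp3-negative cells the mean was 2.75 in KO and 3.41 in WT, and in the 1 population library of each genotype the level was 6.59 in KO and 8.01 in WT, on the same scale. The direction thus differed between the members and the other CD4 libraries. The gene lies on chromosome 8 at 84030294 to 84042589 (GENCODE M21, GRCm38), and since only gene-level values were deposited, loss of single exons is not visible. Because this gene goes against the label in these cells, every direction below follows the label alone.

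**Figure D1:**
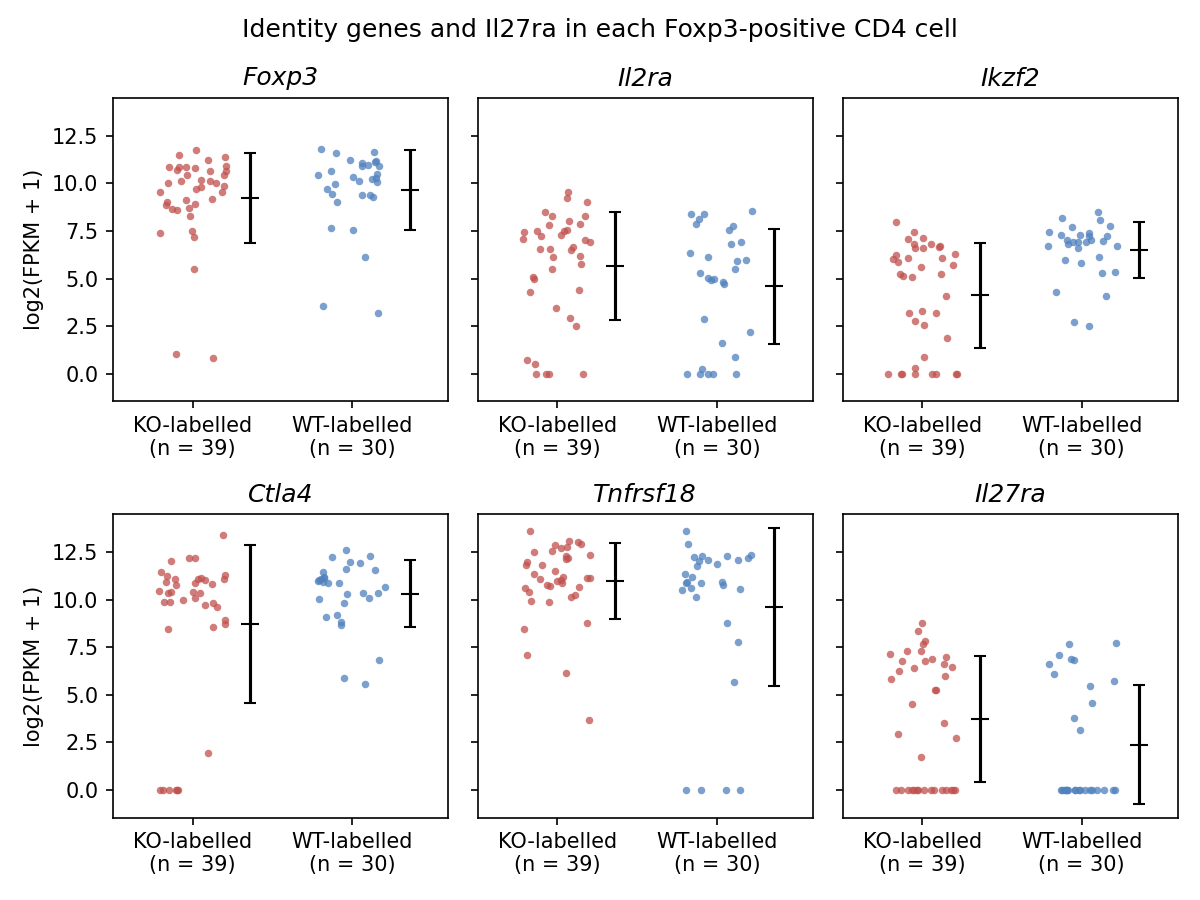
Values of log2(FPKM + 1) of Foxp3, 4 further regulatory T cell genes and Il27ra in each Foxp3-positive CD4 cell, with KO-labelled cells (n = 39) left of WT-labelled cells (n = 30). Each point is 1 cell, and the bar gives the mean and SD over cells. Ikzf2 and Ctla4 had cells at 0 in the KO-labelled group only, Tnfrsf18 in the WT-labelled group only, and Il27ra had cells at 0 in both.

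The regulatory T cell label held up on genes that the rule did not use. Of Il2ra, Ikzf2, Ctla4 and Tnfrsf18, all 4 were above 0 in 26 of 39 KO-labelled members (66.7%) and 22 of 30 WT-labelled members (73.3%). In Foxp3-negative cells all 4 were found in 1 of 39 KO-labelled and 2 of 49 WT-labelled cells. No member lacked all 4 genes in either group.

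Across all genes, the difference of mean log2(FPKM + 1), KO minus WT, was taken over the 6324 genes found in 20% or more of the KO-labelled or of the WT-labelled cells. On this scale a difference follows the share of cells above 0 as well as the level in them, and it understates the change of genes with low values. The median difference was 0.04. A size of 1 was used to count a gene as higher or lower, and 693 genes (11%) were higher in KO by at least 1 and 459 (7.26%) lower. Of the 6324 genes, 812 passed the filter through the KO-labelled cells only and 786 through the WT-labelled cells only, so those genes had to differ in share. In simulated cells with no difference, the sampling of so few cells alone put a share of genes past this size that was not far below the share counted here, so most of the counted differences may be sampling. Counts for a list are read against these percentages. Each alternative has shares of its own, higher and then lower in KO. With log2 taken of mean FPKM they were 15.8% and 13.6%, and without cells that had a CD8 chain 13.7% and 15.2%. A pseudocount of 10 gave 2.81% and 1.71%. Counts under an alternative are read against its own shares.

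The genes that define regulatory T cells did not all differ in the same direction. Of 18 genes on the identity list, 17 passed the filter, and their median difference was 0.35, against 0.04 over all genes. Il2ra, the high-affinity IL-2 receptor chain, and Tnfrsf18, the costimulatory receptor GITR, were higher by at least 1 in KO. Ikzf2, Ctla4 and Cd81 were lower by at least 1. Ikzf2 (chromosome 1, 69531214 to 69687245) encodes Helios, a transcription factor that stabilises the regulatory state. In KO-labelled cells Ikzf2 ran from 0 through a median of 5.22 to 7.99 on the log2 scale, and in WT-labelled cells from 2.52 through 6.93 to 8.51. It was above 0 in 31 of 39 KO-labelled cells (79.5%, 63.5 to 90.7%) and in 30 of 30 WT-labelled cells (100%, 88.4 to 100%). Its mean was 4.12 ± 2.76 in KO against 6.5 ± 1.47 in WT, and the difference was -2.38. The values overlap, with the cells at 0 in the KO-labelled group only.

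Ctla4, an inhibitory receptor through which these cells strip costimulatory ligands from antigen-presenting cells, showed the same shape. It ran from 0 through 10.36 to 13.41 in KO-labelled cells and from 5.6 through 10.88 to 12.63 in WT-labelled cells. It was found in 33 of 39 KO-labelled and 30 of 30 WT-labelled cells, and the difference of means was -1.6. In cells with Ctla4 above 0 the medians were 10.44 in KO and 10.88 in WT, and 6 KO-labelled cells were at 0. Over all cells, those at 0 included, the average FPKM was 1677 in KO against 2021 in WT. Tnfrsf18 was the mirror case, at 3.66 to 13.61 in KO-labelled cells, all above 0, against 0 to 13.61 in WT-labelled cells, of which 26 of 30 were above 0, with a difference of 1.36.

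Il2ra had a median of 6.58 and a highest value of 9.58 in KO-labelled cells, against 5.17 and 8.57 in WT-labelled cells. Both groups held cells at 0, with 35 of 39 KO-labelled and 25 of 30 WT-labelled cells above 0, and the difference was 1.07. Other identity genes were closer. Tnfrsf4, the receptor OX40, differed by 0.65, Icos by 0.56, Folr4, which encodes folate receptor 4, by 0.86, Capg by -0.14, Nrp1 by -0.13 and Tnfrsf9, the receptor 4-1BB, by -0.65. Without cells that had a CD8 chain, which left 23 KO-labelled and 15 WT-labelled cells, the list median was -0.50. In 27 pairs matched on genes detected it was -0.05, so its sign was not stable.

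Genes of effector regulatory T cells were more often lower than higher in the KO-labelled members, 13 below 0 and 9 above. All 22 genes of that list passed the filter, 7 were lower by at least 1 and 0 higher, and the median was -0.68. The lower genes were Klrg1, Rora, Ccr8, Tigit, Glrx, S100a4 and Maf. Klrg1, an inhibitory lectin receptor of terminally differentiated cells, had a median of 0 in KO-labelled cells and 8.02 in WT-labelled cells, with highest values of 13.21 in KO and 12.69 in WT. It was above 0 in 19 of 39 KO-labelled and 19 of 30 WT-labelled cells, and the difference was -1.65. Cells with and without Klrg1 were thus present in both groups. Ccr8, a chemokine receptor typical of tumour regulatory T cells, was found in 17 of 39 KO-labelled cells and 18 of 30 WT-labelled cells, with a difference of -1.56. Maf, a factor that drives Il10, was found in 25 KO-labelled and 23 WT-labelled cells, and its mean was 3.42 ± 3.20 in KO against 4.58 ± 3.16 in WT, giving -1.16. Il10 itself was above 0 in 13 of 39 KO-labelled and 9 of 30 WT-labelled cells, with a difference of 0.42, and Prdm1, which encodes Blimp-1, in 12 of 39 KO-labelled and 18 of 30 WT-labelled cells, with a difference of -0.98. When log2 was taken of mean FPKM, 0 of the 22 genes were lower by 1, 1 was higher, and the list median was -0.06.

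Inhibitory receptors held the largest negative difference of the named genes. Of 16 coinhibitory genes 10 passed the filter, 4 were lower by at least 1, 0 were higher, and the median was -0.60. With log2 of mean FPKM 1 was lower and 1 higher, beside 13.6% and 15.8% of all genes, with a median of -0.13. Pdcd1, which encodes PD-1 and lies on chromosome 1 at 94038305 to 94052553, was above 0 in 8 of 39 KO-labelled cells (20.5%, 9.30 to 36.5%) and 18 of 30 WT-labelled cells (60%, 40.6 to 77.3%). Its median was 0 in KO-labelled cells and 8.85 in WT-labelled cells, and its highest values were 11.33 in KO and 12.19 in WT. The mean was 2.03 ± 4.07 in KO against 5.79 ± 5.01 in WT, giving -3.76, and the average FPKM was 241.1 in KO against 744 in WT. In cells with the gene above 0 the median was 9.86 in both groups. Pdcd1 was thus found in fewer KO-labelled cells, at a like level per positive cell.

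Tigit, a receptor that competes with the costimulator CD226, had a median of 10.22 in KO-labelled cells and 10.86 in WT-labelled cells, was found in 31 of 39 KO-labelled and 29 of 30 WT-labelled cells, and differed by -1.32. In the matched pairs that difference was -0.32. Havcr2, which encodes TIM-3, was found in 15 of 39 KO-labelled and 15 of 30 WT-labelled cells and differed by -1.19. Lag3, an inhibitory receptor for class II molecules, was level, with 18 of 39 KO-labelled and 13 of 30 WT-labelled cells and a difference of 0.17. Counting Pdcd1, Tigit, Havcr2, Lag3 and Ctla4 in each cell, a KO-labelled cell had 2.69 of the 5 on average and a WT-labelled cell 3.5. All 5 were above 0 in 3 of 39 KO-labelled cells (7.69%) and 9 of 30 WT-labelled cells (30%). At most 1 was above 0 in 8 KO-labelled cells, the sum of 1 cell with 0 and 7 cells with 1, and in 0 WT-labelled cells.

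**Figure D2:**
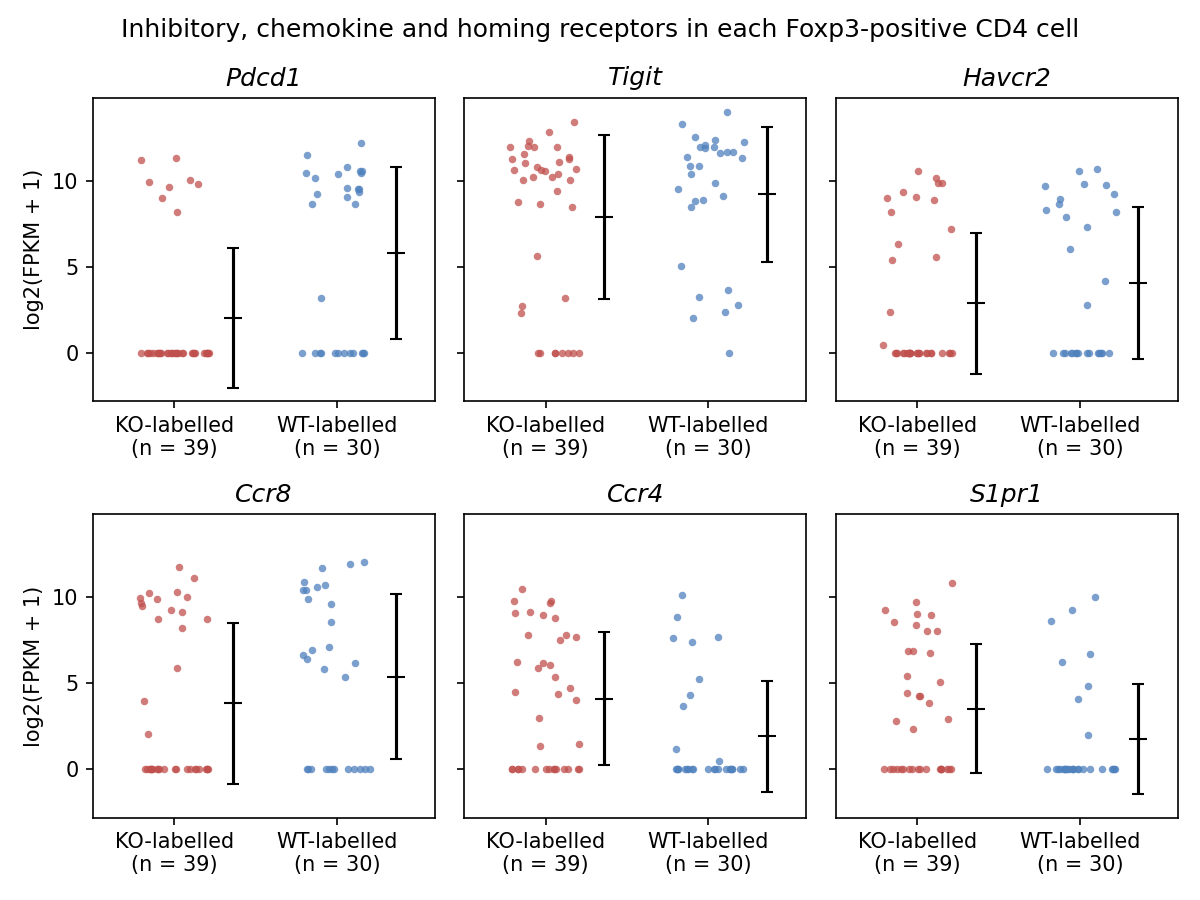
Values of log2(FPKM + 1) of Pdcd1, Tigit, Havcr2, Ccr8, Ccr4 and S1pr1 in each Foxp3-positive CD4 cell, with KO-labelled cells (n = 39) left of WT-labelled cells (n = 30). Points are cells, and bars give the mean and SD over cells. Pdcd1 was above 0 in 8 KO-labelled and 18 WT-labelled cells, and Ccr4 in 24 KO-labelled and 10 WT-labelled cells.

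Of 15 genes of resting regulatory T cells only 8 passed the filter, of which 3 were higher by at least 1 and 0 lower, with a median of 0.63. Without cells that had a CD8 chain the median was 0.02, with 3 higher and 1 lower, and with a pseudocount of 10 it was 0.34, with 1 higher. S1pr1, the receptor for exit from tissue along sphingosine phosphate, was found in 21 of 39 KO-labelled and 8 of 30 WT-labelled cells and differed by 1.77, and Satb1, a chromatin organiser, differed by 1.16. Tcf7 and Ccr7, which mark naive and central memory cells, did not pass the filter, with 4 of 39 KO-labelled and 2 of 30 WT-labelled cells for each. Il7r, the IL-7 receptor chain, was lower, at -0.83.

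Among 25 chemokine receptor and adhesion genes, 20 passed the filter, 5 were higher by at least 1 and 2 lower, with a median of 0.14. Ccr4, a receptor of skin- and tumour-homing regulatory T cells, was found in 24 of 39 KO-labelled cells and 10 of 30 WT-labelled cells, with a difference of 2.20. The integrin chains Itgb1 and Itgb7 differed by 1.62 and 1.24. Chemokine receptors were thus found on either side, with Ccr4 higher and Ccr8 lower in KO.

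Signalling genes of the IL-27 receptor were mostly higher in the KO-labelled members. Of 13 genes on that list 12 passed the filter, 6 were higher by at least 1, 2 were lower, and the median was 0.71. Il6st, the shared receptor chain gp130, differed by -0.80, with 14 of 39 KO-labelled and 13 of 30 WT-labelled cells. Among the kinases Jak2 differed by 1.14, Jak1 by -1.32 and Tyk2 by -1.36. Stat3, a main transcription factor of the pathway, differed by -0.67, and Stat5b by 1.05.

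The feedback inhibitors of the same pathways were higher. Socs3, which binds gp130 and blocks STAT3 signalling, was found in 22 of 39 KO-labelled cells (56.4%, 39.6 to 72.2%) and 8 of 30 WT-labelled cells (26.7%, 12.3 to 45.9%). Its mean was 4.03 ± 4.00 in KO against 2.29 ± 3.89 in WT, giving 1.74, and it had a median of 4.43 in KO-labelled cells and 0 in WT-labelled cells. Socs1, which blocks JAK kinases, was found in 23 of 39 KO-labelled and 13 of 30 WT-labelled cells, with medians of 3.80 in KO and 0 in WT and a difference of 1.95. The IL-2 and STAT5 feedback list holds both, and of its 15 genes 12 passed the filter, 6 were higher by at least 1 and 0 lower, with a median of 0.91. Cish, a STAT5 target that restrains receptor signalling, had medians of 9.33 in KO-labelled cells and 7.98 in WT-labelled cells, was found in 35 of 39 KO-labelled and 22 of 30 WT-labelled cells, and differed by 1.86. Xbp1 and the cell cycle inhibitor gene Cdkn1a differed by 1.87 and 1.37. Cdkn1a passed the filter through the KO-labelled cells only. The receptor chains Il2rb and Il2rg were close, at 0.17 and 0.26. With log2 of mean FPKM 2 of the 12 genes were higher, near the 15.8% of all genes on that scale, and the median was 0.51. In Foxp3-negative cells the same list had a median of 1.23.

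Genes that IL-27 or IL-10 is known to act with showed no common direction. Of 21 genes 16 passed the filter, 1 was higher by at least 1 (Irf1), 3 were lower (Tigit, Havcr2 and Maf), and the median was -0.16. Ly6a differed by -0.30, Entpd1, the ATP-degrading enzyme CD39, by -0.86, Nt5e, the adenosine-forming enzyme CD73, by -0.02, and Il10ra by -0.58. Il21 and Pdpn were above 0 in no member, which allows shares up to 7.69% in KO and 10% in WT.

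Interferon-stimulated genes had a list median of 0.93, next to 0.91 for IL-2 and STAT5 feedback, and the order of these lists turned round in 7 of 17 alternatives. Of 40 genes 30 passed the filter, 15 were higher by at least 1 in KO and 3 lower. With log2 of mean FPKM 6 of the 30 were higher and 1 lower, beside 15.8% and 13.6% of all genes, with a median of 0.69. Irf1, a transcription factor induced by interferon-gamma and IL-27, was above 0 in 33 of 39 KO-labelled cells (84.6%, 69.5 to 94.1%) and 19 of 30 WT-labelled cells (63.3%, 43.9 to 80.1%). Its median was 9.44 and its highest value 13.33 in KO-labelled cells, against 8.23 and 12.04 in WT-labelled cells, with a mean of 8.51 ± 4.14 in KO against 5.95 ± 4.89 in WT, giving 2.56. The groups overlap from cells at 0 up to the highest WT-labelled value.

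The other higher genes fall into known classes. Guanylate-binding and immunity-related GTPases, which act against intracellular pathogens, gave Gbp6 (2.03), Ifi47 (1.94), Gbp3 (1.85), Iigp1 (1.77), Gbp2 (1.43) and Igtp (1.32). These are families of similar genes, and reads shared between their members make single values uncertain. Antigen processing genes gave the immunoproteasome subunits Psmb10 (2.18) and Psmb8 (1.10), the peptide transporter chain Tap2 (1.06) and the loading chaperone Tapbp (1.29). Psme1, a proteasome activator gene outside the list and among the 10 largest positive differences, was found in 33 of 39 KO-labelled and 16 of 30 WT-labelled cells and differed by 3.14. Ifit1, an antiviral RNA-binding gene, was found in 10 of 39 KO-labelled cells and 1 of 30 WT-labelled cells and differed by 1.98. Ifit1 passed the filter through the KO-labelled cells only. Isg20, Bst2 and Zbp1 were lower, at -1.04, -1.11 and -1.19, and Isg15 (0.76), Irf7 (0.31), Psmb9 (0.20) and Gbp7 (-0.25) were within 1.

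**Figure D3:**
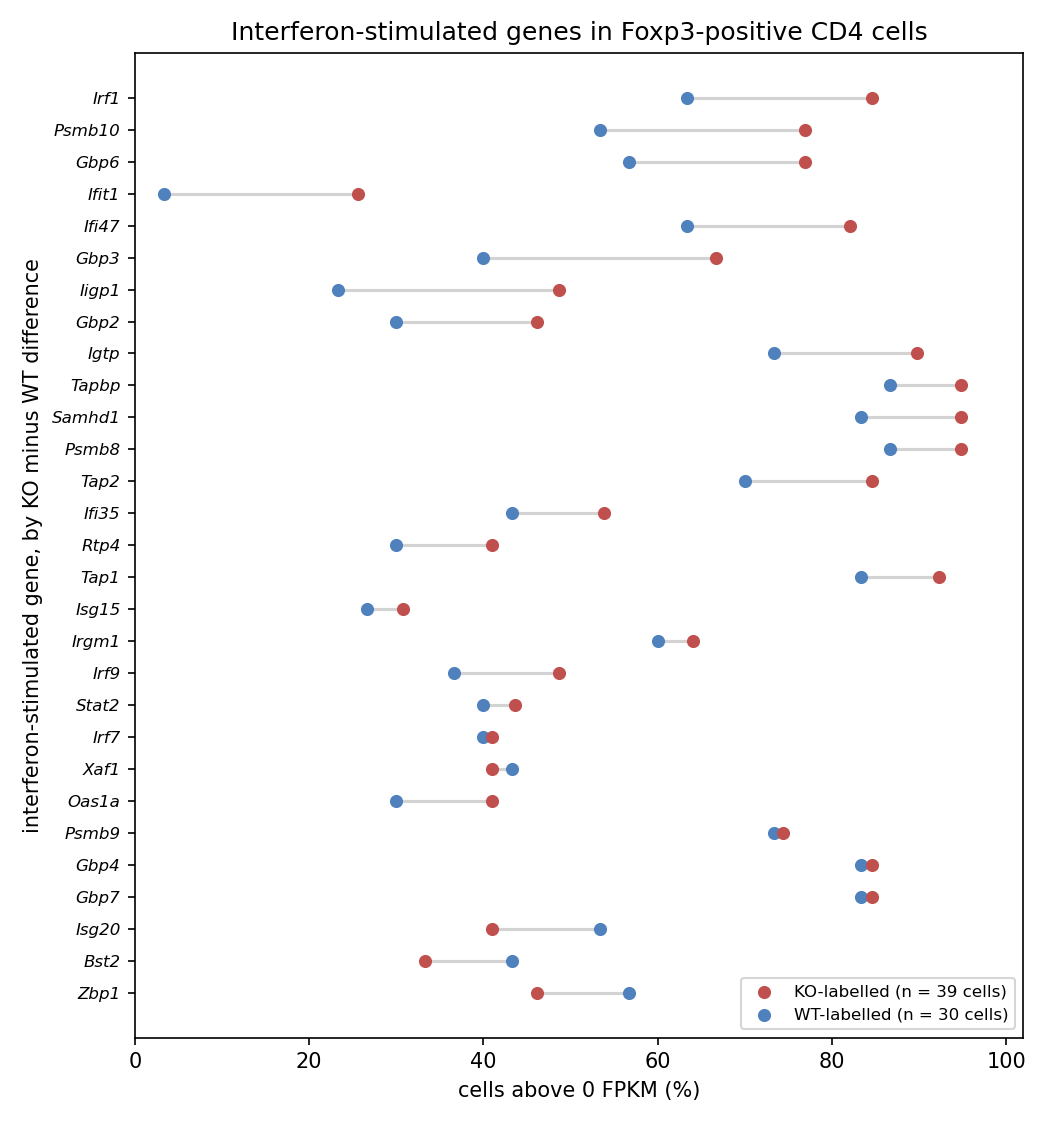
Share of Foxp3-positive CD4 cells above 0 FPKM for 29 of the 30 interferon-stimulated genes that passed the filter, ordered from the highest KO minus WT difference at the top, with KO-labelled cells (n = 39) in red and WT-labelled cells (n = 30) in blue. Irf1 was above 0 in 84.6% of KO-labelled and 63.3% of WT-labelled cells, and at the bottom Zbp1 was found in a smaller share of KO-labelled cells.

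Cxcl10, the chemokine ligand of CXCR3 and an interferon-gamma target, was also among the 10 largest positive differences. It was above 0 in 13 of 39 KO-labelled cells (33.3%, 19.1 to 50.2%) and 1 of 30 WT-labelled cells (3.33%, 0.0844 to 17.2%). It thus passed the filter through the KO-labelled cells only. Its highest value was 13.44 in KO-labelled cells and 9.24 in WT-labelled cells, and the difference of means was 2.89. In Foxp3-negative cells it was above 0 in 15.4% of KO-labelled cells and 0% of WT-labelled cells. In the population libraries, 1 for each genotype, it was 9.79 in KO and 0 in WT. Other genes higher in KO among members lay on either side there. KO minus WT was 1.06 for Irf1 and 2.55 for Socs1, but -1.23 for Ifit1, -0.19 for Socs3 and -0.96 for Slamf6. Myeloid cells also make this chemokine. Of 10 macrophage and monocyte markers, Csf1r and Emr1 were at 0 in all members, and the summed log2 level of the list ran from 0 through a median of 0 to 41.4 in KO-labelled cells and from 0 through 0 to 19.2 in WT-labelled cells. The 5 class II genes were all found in some member, and their summed level ran from 0 through 0 to 65.3 in KO-labelled cells and from 0 through 7.0 to 21.1 in WT-labelled cells. Without the 3 KO-labelled cells and 1 WT-labelled cell with at least 3 such markers, 11 interferon-stimulated genes were higher by at least 1 and the list median was 0.61. IL-2 and STAT5 feedback then had 4 higher genes and a median of 0.69. Over all genes counted without those cells, 9.65% were higher by at least 1.

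Promoters are shown for 6 of these genes because STAT dimers and interferon-response factors are known to bind defined letters there. The windows are the 250 bases before the RefSeq transcript start on GRCm38.p6, written 5′ to 3′ along the gene's strand, and capitals mark the matches. The GAS motif was searched as TTCNNNGAA, which reads the same on both strands, and the ISRE motif as GAAA, any 2 bases and GAAA on both strands. Shares over many promoters were counted in the table's whole promoter sequences, which run on past the transcript start and so past these 250 bases. GAS was in 8.30% and ISRE in 3.44% of all 32851 whole sequences. The windows were chosen because they hold a match, Irf1 and Socs3 for GAS, Igtp for both, and Gbp2, Cxcl10 and Socs1 for ISRE. Irf1 has the window chr11:53769764-53770013 on the plus strand and Socs3 chr11:117969367-117969616 on the minus strand. Igtp has chr11:58199306-58199555 and Gbp2 chr3:142620413-142620662, both on the plus strand. Cxcl10 has chr5:92348890-92349139 and Socs1 chr16:10785537-10785786, both on the minus strand.
Irf1: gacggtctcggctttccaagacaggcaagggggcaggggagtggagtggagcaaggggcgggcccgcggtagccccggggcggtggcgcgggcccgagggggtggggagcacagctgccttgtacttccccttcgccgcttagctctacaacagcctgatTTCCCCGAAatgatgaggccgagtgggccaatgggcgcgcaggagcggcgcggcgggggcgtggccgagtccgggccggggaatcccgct
Socs3: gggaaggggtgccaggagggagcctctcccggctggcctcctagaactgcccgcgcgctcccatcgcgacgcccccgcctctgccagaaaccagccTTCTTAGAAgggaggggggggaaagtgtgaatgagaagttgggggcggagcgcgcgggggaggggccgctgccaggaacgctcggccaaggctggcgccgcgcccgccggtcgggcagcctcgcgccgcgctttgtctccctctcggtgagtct
Igtp: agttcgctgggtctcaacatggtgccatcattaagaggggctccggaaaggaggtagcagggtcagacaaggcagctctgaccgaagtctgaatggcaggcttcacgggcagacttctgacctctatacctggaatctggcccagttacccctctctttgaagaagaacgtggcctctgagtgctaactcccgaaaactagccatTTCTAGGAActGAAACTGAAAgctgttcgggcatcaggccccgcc
Gbp2: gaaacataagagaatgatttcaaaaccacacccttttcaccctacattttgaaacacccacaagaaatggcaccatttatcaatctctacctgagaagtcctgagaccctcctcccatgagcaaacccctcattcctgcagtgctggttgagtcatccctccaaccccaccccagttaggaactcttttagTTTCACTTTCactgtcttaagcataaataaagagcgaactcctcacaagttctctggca
Cxcl10: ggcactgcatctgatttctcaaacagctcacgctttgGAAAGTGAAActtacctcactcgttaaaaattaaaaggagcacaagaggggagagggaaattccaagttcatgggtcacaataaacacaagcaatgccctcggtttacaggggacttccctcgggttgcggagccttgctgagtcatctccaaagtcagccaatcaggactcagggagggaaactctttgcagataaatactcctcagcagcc
Socs1: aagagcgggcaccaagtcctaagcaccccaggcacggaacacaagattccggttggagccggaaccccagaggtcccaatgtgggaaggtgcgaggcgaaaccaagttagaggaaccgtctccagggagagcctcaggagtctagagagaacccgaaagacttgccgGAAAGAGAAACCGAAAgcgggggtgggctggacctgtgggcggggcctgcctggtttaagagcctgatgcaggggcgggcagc

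In the Irf1 window the GAS match begins 90 bases before the start, and Irf1 has a second window in the table with no match. In the Igtp window the GAS match begins 45 and the ISRE match 34 bases before the start, so they do not overlap. The Socs1 window holds 2 overlapping ISRE matches, shown as 1 run of capitals. In whole promoter sequences, 10 of 30 genes of the interferon-stimulated list in the table had a GAS match and 13 an ISRE match. Across all genes of the table the shares were 9.55% and 3.99%. Among the 11 of these listed genes that were higher by at least 1, 5 had GAS and 4 ISRE in a whole sequence. These counts reach past the transcript start and so do not hold for the shorter windows. In those windows alone, Psme1, Psmb10 and Ifi47, all higher by at least 1, held neither set of letters. A match is a description of the letters, and binding was not measured.

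Immediate early and stress genes were mixed. Of 22 genes 20 passed the filter, 7 were higher by at least 1 and 2 lower, with a median of 0.26. Of the 7, Ier5 and Dusp2 passed through the KO-labelled cells only, and 5 genes were higher with a filter of 40%. Ifrd1, a transcriptional coregulator gene, was found in 25 of 39 KO-labelled cells and 10 of 30 WT-labelled cells and differed by 2.87. Ier2, an immediate early gene, had medians of 8.04 in KO-labelled cells and 1.08 in WT-labelled cells and differed by 2.39. Fos and Junb, which encode AP-1 subunits, were level, at -0.10 and -0.46. Dusp1, which encodes a MAP kinase phosphatase, was lower, with a median of 10.49 in KO-labelled cells and 11.63 in WT-labelled cells and a difference of -1.22. In Foxp3-negative cells 16 of these 20 genes were higher by at least 1 and 0 lower, with a median of 1.68, in a comparison where 14.5% of the 6324 genes were higher and 1.41% lower.

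Of 19 genes induced by the antigen receptor 13 passed the filter, 1 was higher (Nr4a2, 1.26) and 1 lower (Bhlhe40, -1.24), with a median of 0.39. Nr4a2 was found in 8 of 39 KO-labelled cells and 1 of 30 WT-labelled cells, so it passed the filter through the KO-labelled cells only. Nr4a1, a sensor of receptor signal strength, differed by 0.39 and Cd69 by 0.81. All 17 NF-kB genes passed, with 4 higher and 1 lower and a median of 0.19. Nfkb2 was the highest, with 29 of 39 KO-labelled and 18 of 30 WT-labelled cells and a difference of 1.85. Tnfaip3, which encodes the NF-kB inhibitor A20, was the lowest, with 31 of 39 KO-labelled and 29 of 30 WT-labelled cells, a mean of 6.62 ± 3.79 in KO against 8.67 ± 2.30 in WT, giving -2.06.

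Glycolysis genes were more often lower than higher in KO, 11 below 0 and 4 above. Of 16 genes 15 passed the filter, 0 were higher by at least 1 and 6 lower, with a median of -0.52. Pgk1, phosphoglycerate kinase, was found in 23 of 39 KO-labelled cells (58.97%, 42.1 to 74.4%) and 25 of 30 WT-labelled cells (83.3%, 65.3 to 94.4%). Its median was 8.34 in KO-labelled cells and 9.88 in WT-labelled cells, and the mean was 5.74 ± 5.05 in KO against 8.38 ± 4.0 in WT, giving -2.65. Tpi1, triosephosphate isomerase, differed by -2.05, Slc16a3, a lactate exporter, by -1.74, Pfkl by -1.47, Pgam1 by -1.37 and Hk1 by -1.35. The most abundant enzymes lay on either side, with Gapdh at -0.18, Aldoa at -0.13, Ldha at -0.29, Pkm at 0.45 and Eno1 at 0.80. With log2 of mean FPKM, 0 genes were lower by 1, though the median was -0.56.

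Of 27 nuclear-encoded genes of oxidative phosphorylation, all passed, 5 were higher by at least 1 and 1 lower, with a median of 0.49. Atp5b, a subunit of ATP synthase, had medians of 10.44 in KO-labelled cells and 8.58 in WT-labelled cells and differed by 1.96. Ndufb8 and Cox8a, subunits of complexes I and IV, differed by 1.80 and 1.75, and Ndufb4 by -1.47. Without cells that had a CD8 chain the same list had 4 higher and 8 lower genes and a median of 0.19.

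Costimulatory receptors had 14 of 15 genes past the filter, 3 higher and 0 lower, with a median of 0.13. Of these 3, Slamf6 and Cd226 passed through the KO-labelled cells only, and 1 gene was higher with a filter of 40%. Slamf6, a homotypic receptor of less differentiated T cells, was found in 15 of 39 KO-labelled cells and 4 of 30 WT-labelled cells and differed by 2.08, and Cd28 differed by -0.98. The suppressive mechanism list had 14 of 17 genes past the filter, 0 higher and 1 lower (Ctla4), with a median of 0.08. Prf1, which encodes perforin and did not pass the filter, was found in 0 of 39 KO-labelled cells (up to 7.69%) and 4 of 30 WT-labelled cells. Th1-like genes had 11 of 15 past the filter, 1 higher and 3 lower, with a median of 0.11. Tbx21, which encodes the Th1 factor T-bet, was found in 11 of 39 KO-labelled and 5 of 30 WT-labelled cells and differed by 0.90. It passed the filter through the KO-labelled cells only. Cxcr3 was found in 15 KO-labelled and 12 WT-labelled cells, with a difference of -0.36. Of 30 cell division genes 14 passed, 0 were higher and 3 lower, with a median of -0.22, and Mki67 was above 0 in 5 of 39 KO-labelled and 3 of 30 WT-labelled cells. The housekeeping list had 16 of 17 genes past the filter, 2 higher (Ywhaz and Sdha) and 1 lower (Pgk1), with a median of 0.23.

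The largest differences overall were not confined to immune genes. Among the 10 highest were Dctn6, a dynactin subunit (3.28), Psme1, Acadvl, a mitochondrial fatty acid dehydrogenase (3.01), Tpst2, a tyrosine sulphotransferase (2.89), Cxcl10, Ifrd1, Tbca, a tubulin-folding cofactor (2.82), R3hdm4 (2.76) and Rbms1, an RNA-binding protein gene (2.76). Each was found in a larger share of KO-labelled cells, for example Dctn6 in 24 of 39 KO-labelled against 7 of 30 WT-labelled cells. After Pdcd1, the lowest were Cdc42se2, a small effector of the GTPase CDC42 (-3.47), Rasal3, a Ras-family GTPase-activating protein gene (-3.29), Zc3h12d, which encodes an RNA-degrading regulator of the Regnase family (-3.04), Gna15, a G protein subunit (-2.74), Bmyc (-2.66), Pgk1, Mta3 (-2.61), Rtfdc1 (-2.60) and Neat1, a nuclear noncoding RNA (-2.45). Cdc42se2 was found in 22 of 39 KO-labelled cells and 26 of 30 WT-labelled cells, and Zc3h12d in 8 of 39 KO-labelled and 19 of 30 WT-labelled cells.

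Set beside the Foxp3-negative CD4 cells, 5 lists had medians of the other sign. Effector regulatory T cell genes had -0.68 in members and 0.54 in Foxp3-negative cells, coinhibitory receptors -0.60 and 0.53, glycolysis -0.52 and 0.91, the IL-27 and IL-10 list -0.16 and 0.29, and Th1-like genes 0.11 and -0.09. The median over all 6324 genes was 0.04 in members and 0.23 in Foxp3-negative cells. Interferon-stimulated genes had 0.93 in members and 0.28 in Foxp3-negative cells, the last close to the median over all genes there, with 4 of 30 genes higher by at least 1. The housekeeping list had 0.23 in members and 1.20 in Foxp3-negative cells, where 11 of its 16 genes were higher by at least 1. Both comparisons use the same 2 samples, 1 for each genotype, and the difference between them was not tested. From members to Foxp3-negative cells, the housekeeping median and the gap in genes detected, given above, moved towards higher values in KO. The effector, coinhibitory, glycolysis and IL-27 and IL-10 medians moved the same way, while the interferon-stimulated and Th1-like medians fell. The part of genes detected and of the housekeeping genes in these differences was not tested.

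**Figure D4:**
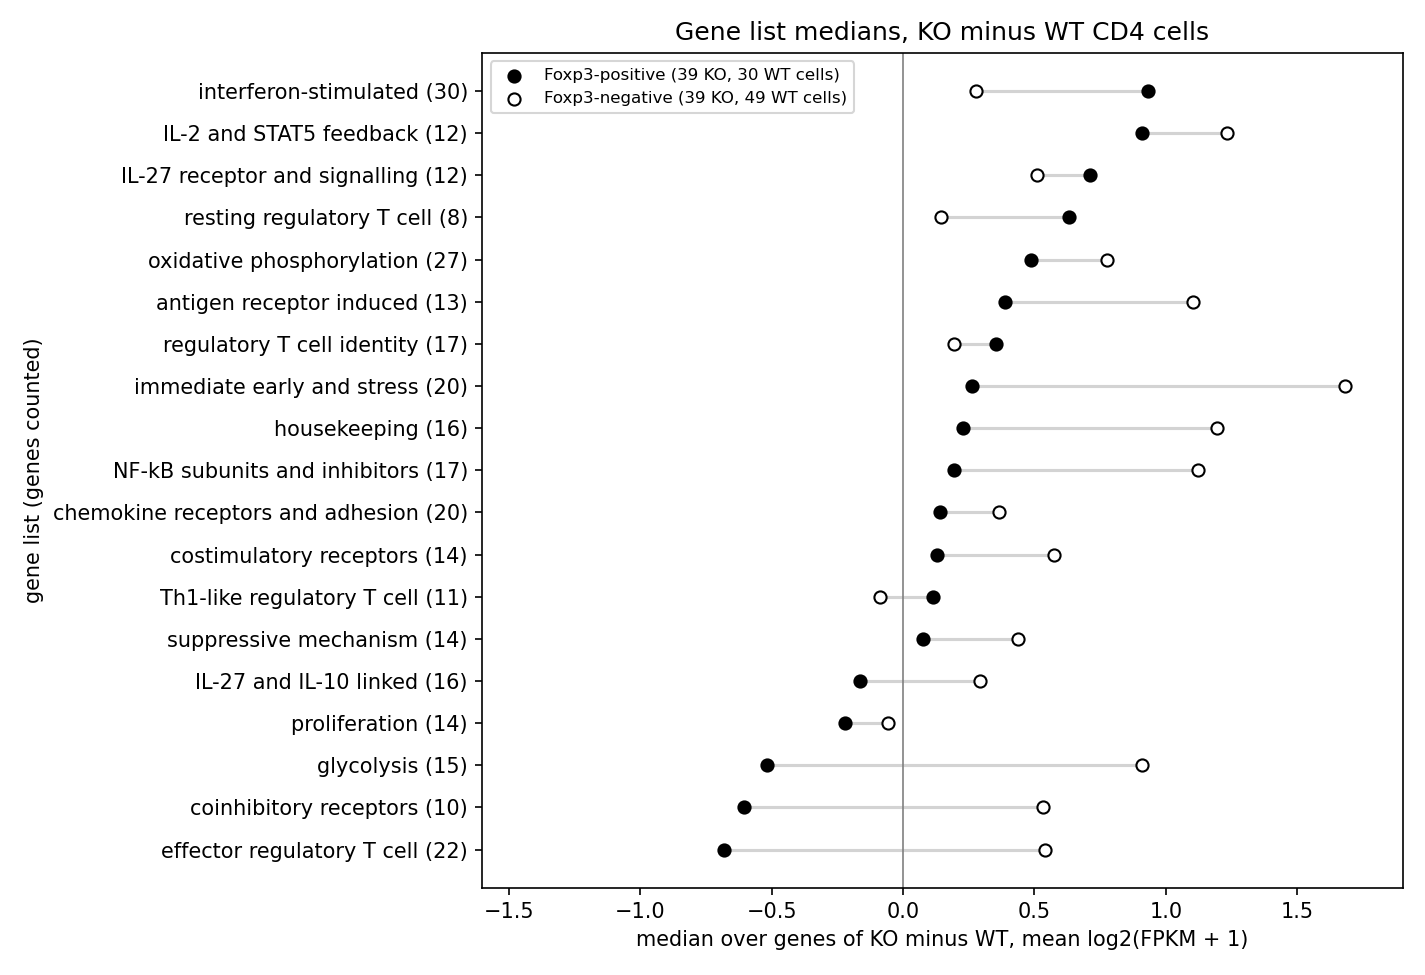
Median over genes of the KO minus WT difference of mean log2(FPKM + 1) for each of the 19 lists, in Foxp3-positive (filled) and Foxp3-negative (open) CD4 cells. Numbers in brackets are genes counted. In Foxp3-positive cells the medians run from -0.68 for effector regulatory T cell genes to 0.93 for interferon-stimulated genes.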

How the data were processed

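The authors deposited FPKM that were scaled between libraries by TMM, as stated per the labels. The submitters' processing notes name Bowtie, RSEM and mm10. Versions and annotation are not given in the sources used here. Per the labels' protocols, Smart-seq2 with 21 amplification cycles was used, and no molecular identifiers are described, so intervals cover counting error only. RSEM splits reads over similar transcripts, which makes close paralogs uncertain. Whether genes were counted by strand is not given.

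The table holds 23420 genes for 378 libraries, with 0 columns left unmapped. Members and gene lists were chosen with earlier results of these data known. Each gene list is summarised by its median KO minus WT difference in mean log2(FPKM + 1), pseudocount 1, among genes found in 20% or more of the KO-labelled or of the WT-labelled cells. With 1 sample per genotype no p-value was made. Of 389 listed symbols 388 were matched, 4 by an older name. Named genes were 20 fixed genes, the 10 largest differences each way with the same direction in shares and in matched cells (T cell receptor, immunoglobulin, mitochondrial, predicted, RIKEN, small RNA and pseudogene names left out), the highest and lowest member of each list, and markers. Some members counted in the lists and named by these rules are not reported here. Other list members given with values were chosen after these were seen.

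FPKM hides read depth, and genes detected are used for it here. Depth was also estimated from the steps between low FPKM values, for one alternative that thins cells. By cell, 54.2% of low values (median) were whole reads to within 0.1, so the estimate is rough. It was tried in 6 versions, whose median steps on these cells differed by up to 1.53 times, and the first version was kept. In simulated libraries of any depth the kept version recovered the fewest, and it failed on deep ones. A second simulation, made after that failure and limited to the depth the estimate itself gives, was recovered by all 6 versions and cannot choose between them. The difference of means was tested on simulated data as well, where unchanged genes passed a size of 1 from the sampling of cells alone at a rate not far below that of all genes in the real cells. Work was done in Python 3.11.15 with numpy 2.4.6, with gene coordinates from GENCODE M21 and promoters from RefSeq.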

Additional observations from a re-analysis of the deposited data

Results flagged for a closer look

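Of 60 named genes, 45 differed by at least 1 between KO and WT in Foxp3-positive cells. Many were named for their large differences, so that count largely follows from the choice. Of the 45, 8 differed by at least 1 in the other direction in Foxp3-negative CD4 cells. All 8 were lower in KO in Foxp3-positive cells and higher in Foxp3-negative cells. Over all 6324 genes, 7.26% were lower by at least 1 in the first and 14.5% higher in the second, where 1.41% were lower. The difference between the cell sets was not tested. Each pair below gives KO minus WT of mean log2(FPKM + 1), first in Foxp3-positive cells. Among receptors and surface genes, Pdcd1 had -3.76 and 1.40 and Cd4 -1.49 and 2.37. For signalling and immediate early genes, Dusp1 had -1.22 and 4.22, Tnfaip3 -2.06 and 2.15, Bhlhe40 -1.24 and 2.44, and Gna15 -2.74 and 1.00. The glycolytic gene Pgk1 had -2.65 and 2.42, and Mcm6, a DNA replication helicase subunit, had -1.6 and 1.02. Median genes detected were 2809 in KO and 2822 in WT among Foxp3-positive cells, and 2500 in KO and 2119 in WT among Foxp3-negative cells, and the part of this gap was not tested.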

How the results depend on the processing

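Under 17 alternatives, 906 of 1053 values of the 62 named genes stayed within 0.25 or 1.5 times the reported value. Of the 63 genes that these and Il27ra make, 7 changed sign under some alternative, and Il27ra did not. Of those that differed by at least 1, Bhlhe40 did, at 0.014 with log2 of mean FPKM, beside the smaller Prdm1, Il10, Cxcr3, Mcm4, Pfkp and Ccnd2. Of the 19 list medians 9 changed sign under some alternative, in 24 values. Of those past 0.5, coinhibitory receptors did, at 0.00067 with no filter on low values. The others were the identity, suppressive, IL-27 and IL-10, antigen receptor, NF-kB, costimulatory, chemokine and proliferation lists. The genes higher (693) and lower (459) became 1281 (20.3% of those counted) and 936 (14.8%) with a pseudocount of 0.1, and 2.81% and 1.71% with 10, where Il27ra was 2.03 and 0.71. A filter of 40% left 456 higher genes (14.7%), and log2 of mean FPKM gave 997 higher (15.8%) and 861 lower ones (13.6%). Rescaling each cell to the same total gave 621 higher and 541 lower. Without cells with a CD8 chain 986 genes were lower (15.2%), without cells with markers of other types 704 (11.6%), and thinned cells gave 427 higher (8.80%). The identity list, 0.35 as reported, was 0.10 with log2 of mean FPKM, -0.046 in matched cells, -0.50 without CD8-chain cells, -0.26 without other-type markers, 0.089 without cells with 3 myeloid or class II markers (chosen after seeing the data) and -0.0022 when thinned. The immediate early list, 0.26 as reported, was 0.70 with log2 of mean FPKM, 0.84 in matched cells and 0.66 without CD8-chain cells. The IL-27 and IL-10 list, -0.16 as reported, was 0.13 with log2 of mean FPKM and -0.65 without other-type markers, where Il27ra was 0.89. The cause of these moves was not tested. No paired analysis was possible because each genotype is 1 sample, library numbers mark single cells, and no test was made.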
